A study of Mus musculus with 4 samples.

Results

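Sites bound by the glucocorticoid receptor (GR) were described around 10 of 21631 protein-coding genes, chosen by function: the receptor gene Nr3c1, the chaperone genes Fkbp5, Fkbp4, Hsp90aa1, Hsp90ab1 and Ptges3, the corticosterone metabolism genes Hsd11b1, Hsd11b2 and H6pd, and the coactivator gene Ncoa2. The choice was made with earlier results of these data known. A site was a peak whose centre lay in the gene span or within 100 kb of it, which gave 20 of 5638 peaks after 1 h and 9 of 2883 after 12 h of corticosterone. Chromatin immunoprecipitation followed by sequencing (ChIP-seq) was done with a cocktail of GR antibodies in 33AP1C9 cells, a line derived from C127 mouse mammary cells. In every group the cells carry an integrated reporter driven by a hormone-responsive viral promoter (MMTV-pp7) and express a GFP-tagged PP7 coat protein, and every group was kept in charcoal-dextran serum without phenol red before hormone. Hormone was 600 nM corticosterone for 1 h or for 12 h, the third group was left untreated, and each condition has 1 library. A genomic input, whose label also gives a corticosterone treatment, was not used here. The deposited peak lists hold no expression values, so neither the mammary origin of the line nor the output of any gene was checked.

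In cells without hormone, GR is held in the cytoplasm by HSP90 together with p23, the product of Ptges3, in a form that can bind steroid. Of the immunophilins that dock on HSP90, FKBP51 (Fkbp5) lowers the hormone affinity of the receptor, whereas FKBP52 (Fkbp4) favours its transport to the nucleus, and Fkbp5 is itself a classical glucocorticoid target that closes a feedback loop. Inside the cell the amount of active corticosterone is set by Hsd11b1, which regenerates it from its inert keto form with NADPH that H6pd supplies in the endoplasmic reticulum, and by Hsd11b2, which inactivates it.

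The libraries held 79203826 tags in the untreated, 90556119 in the 1 h and 97749688 in the 12 h condition, and levels below are tags per site scaled to a library of 10000000 tags. The control for calling peaks in either treated library was the untreated library, at a fold of at least 6, so a listed site exceeded that library by construction. With 1 library per condition there is no test between conditions and no replicate check, and the 95% intervals given for ratios cover counting error only. Genome sequence under the peaks was not used here. The promoters below are shown because Fkbp5 and H6pd carried most of the sites and Fkbp4 is a close relative of Fkbp5 with 1 site. They are the 250 bases before the annotated start, from RefSeq in GRCm38.p6, each on the minus strand: chr17:28486150-28486399 for Fkbp5, chr6:128438657-128438906 for Fkbp4 and chr4:150003237-150003486 for H6pd. Capitals mark the only match found to the short GR element AGAACA on either strand.
Fkbp5: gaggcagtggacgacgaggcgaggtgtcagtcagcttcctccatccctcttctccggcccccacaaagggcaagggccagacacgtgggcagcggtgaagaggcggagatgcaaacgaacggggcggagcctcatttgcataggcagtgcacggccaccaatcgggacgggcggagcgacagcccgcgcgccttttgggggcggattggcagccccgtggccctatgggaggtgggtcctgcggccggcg
Fkbp4: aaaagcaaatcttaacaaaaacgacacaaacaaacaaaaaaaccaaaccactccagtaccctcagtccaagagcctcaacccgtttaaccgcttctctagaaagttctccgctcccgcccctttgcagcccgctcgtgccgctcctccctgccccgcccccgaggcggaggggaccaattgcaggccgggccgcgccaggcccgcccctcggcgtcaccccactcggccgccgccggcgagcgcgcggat
H6pd: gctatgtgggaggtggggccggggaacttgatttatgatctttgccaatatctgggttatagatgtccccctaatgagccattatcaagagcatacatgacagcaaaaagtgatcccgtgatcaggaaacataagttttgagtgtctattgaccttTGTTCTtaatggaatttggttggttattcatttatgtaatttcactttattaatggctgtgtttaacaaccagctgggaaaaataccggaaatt

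No listed site overlapped these windows. From the annotated start the nearest site centre lay 5.01 kb away at Fkbp5 at 1 h and 5.05 kb away at 12 h, 13.8 kb away at H6pd at both times, and 47.8 kb away at Fkbp4 at 1 h. Promoters of 5 of the 10 genes were in the table, the others being Ptges3 and Hsd11b1. Over the 300-base windows of these 5, from 250 bases before to 50 after the start, the full GR element (GNACA, any 3 bases, then TGTNC) and the AP-1 element TGANTCA were not found. The short element AGAACA, which can overlap the full one in part, was found in H6pd alone, 94 bases before the start. Among 32544 annotated promoter windows of that length, the full element was in 0.476%, the AP-1 element in 7.79% and the short element in 18.9%. None of the 29 listed sites overlapped the promoter window of any gene in the table. At H6pd and Hsd11b1 the annotated start lies 5.79 and 21.7 kb inside the gene span. Sequence at the outer end of these spans was not searched.

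After 1 h, 6 of the 10 genes had a site, namely Fkbp5, Fkbp4, Hsp90ab1, Hsd11b1, H6pd and Ncoa2, where 37.9% of all protein-coding genes did. After 12 h, 3 had a site, namely Fkbp5, H6pd and Hsd11b2, against a background of 22.6%. Nr3c1, Hsp90aa1 and Ptges3 had none at either time. Fkbp5 and H6pd together held 12 of the 20 sites at 1 h and 8 of the 9 at 12 h. When sites had to stand at 2 or more times each minimum of the caller, 3 genes of the set had one at 1 h and 2 at 12 h, where under that filter 19.4% and 9.86% of all protein-coding genes did. The gene was itself the nearest protein-coding gene for 8 of the 20 sites at 1 h and 5 of the 9 at 12 h, so most 1 h sites are assigned here by distance only.

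**Figure D1:**
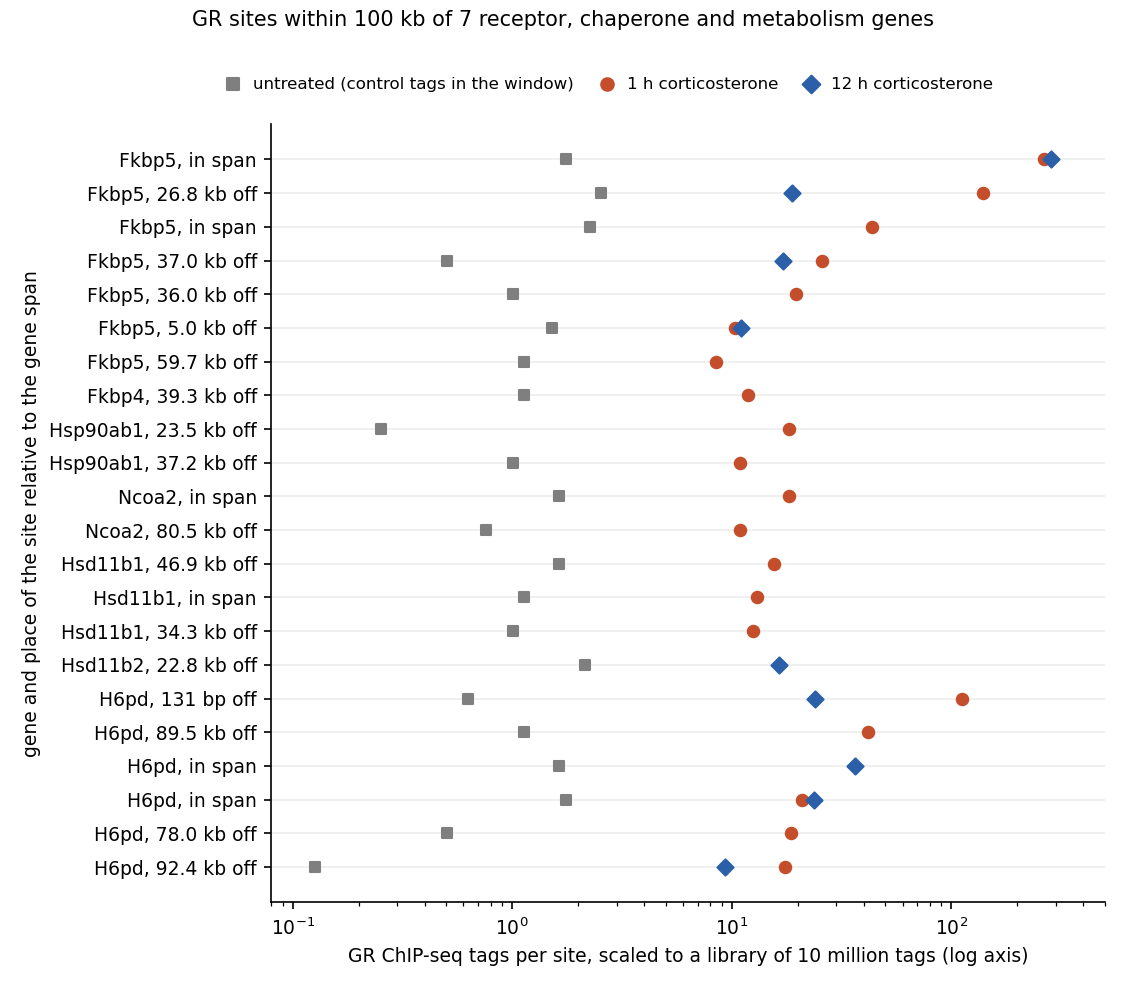
Tags per site (log axis, scaled to 10000000 tags) at each of the 22 positions listed near 7 of the genes, with the untreated library's tags in the same window as squares, 1 h as circles and 12 h as diamonds. A missing circle or diamond means that no peak was listed there at that time; the main Fkbp5 site, at 263.6 and 283.7 tags, is the highest at both times, and each untreated square lies below the treated values of its row.

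Fkbp5 (chromosome 17, 28398753 to 28486149, minus strand) had 7 sites at 1 h and 4 at 12 h. As many or more were found at 0.264% of all protein-coding genes at 1 h and at 0.754% at 12 h. The sites were spread over 125 kb, from deep inside the gene to 59.7 kb upstream of its start.

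The strongest Fkbp5 site lay inside the gene, 65.8 kb downstream of the start (chr17:28420204-28420486 at 1 h). The untreated library held 14 raw tags there, or 1.77 scaled tags, against 263.6 at 1 h and 283.7 at 12 h. The 1 h library stood 149-fold and the 12 h library 150-fold over the untreated one, and the site ranked 19th by the caller's score among all 1 h peaks and 5th among all 12 h peaks. The log2 ratio of 12 h over 1 h was 0.11 (0.03 to 0.19), and 0.01 per base of the window, since 12 h windows are 302 bp and 1 h windows 282 bp wide. Of the 68 sites with 1 h tags within 1.5 times of this one, all were listed at 12 h, with a median log2 ratio of -0.75, and 3 of them, this one included, had a ratio as high. By likeness of both treated levels over these 2 libraries, 3 sites came closest to it. Of these, 1 lay inside Klf13 (327 and 259.5 tags). The others lay far from their nearest protein-coding genes, 135 kb from 1700056E22Rik (257 and 261) and 91.0 kb from Adra1b (257 and 256).

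The second Fkbp5 site lay upstream of the gene, 26.8 kb from the start and 17.9 kb from Armc12, a gene for an armadillo repeat protein that is the nearer of the 2 (chr17:28512846-28513128). It held 2.53 scaled tags in the untreated library, 139.7 at 1 h and 18.9 at 12 h. The 12 h library was 7.38-fold lower than the 1 h library (6.32 to 8.66), a log2 ratio of -2.88 (-3.11 to -2.66). Among the 2436 sites listed at both times, 1 had a lower ratio. At 1 h the site stood 55.3-fold over the untreated library and 26.2-fold over its surroundings, and at 12 h the values were 6.52 and 9.34, the first just above the caller's minimum of 6. Sites of like strength at 1 h, within 1.5 times of its tags, numbered 238, of which 96.6% were listed at 12 h with a median log2 ratio of -0.84, and 2 of the 230 pairs, this one included, were as low. Of the 2 strongest sites of the locus, 92.6 kb apart, the one inside the gene was thus at nearly the same level in both treated libraries and the upstream one was not.

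A further site inside Fkbp5, 22.1 kb downstream of the start (chr17:28463913-28464195), held 2.27 tags untreated and 43.4 at 1 h and was not listed at 12 h. With 18 raw tags in the untreated library it would have needed 13.6 scaled tags at 12 h to reach the fold over control, 1 of the conditions for being listed. Of 1023 sites with 1 h tags within 1.5 times of it, 26.6% were not listed at 12 h.

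The remaining 4 Fkbp5 sites lay upstream of the start and were weaker. The one 5.01 kb upstream (chr17:28491018-28491300), the closest to the promoter, held 1.52 tags untreated, 10.3 at 1 h and 11.0 at 12 h, and its log2 ratio of 0.11 had an interval that covers 0 (-0.31 to 0.52). The site 37.0 kb upstream (chr17:28523048-28523330) held 0.505 tags untreated, 25.8 at 1 h and 17.2 at 12 h, a log2 ratio of -0.59 (-0.88 to -0.30) close to the median of -0.49 over all shared sites. Its neighbour 1.09 kb away held 19.7 tags at 1 h, and the most distant site held 8.50, and both were in the 1 h list only. Among 1 h sites within 1.5 times of these levels, 62.5% and 83.9% were not listed at 12 h. These 2 positions are nearest to Armc12 and to Clpsl2, a colipase-like gene. The pair of sites 37.0 and 35.95 kb upstream lay on either side of the annotated start of the long noncoding RNA gene E230001N04Rik, 533 and 557 bp from it, a gene singled out here after the positions were seen.

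**Figure D2:**
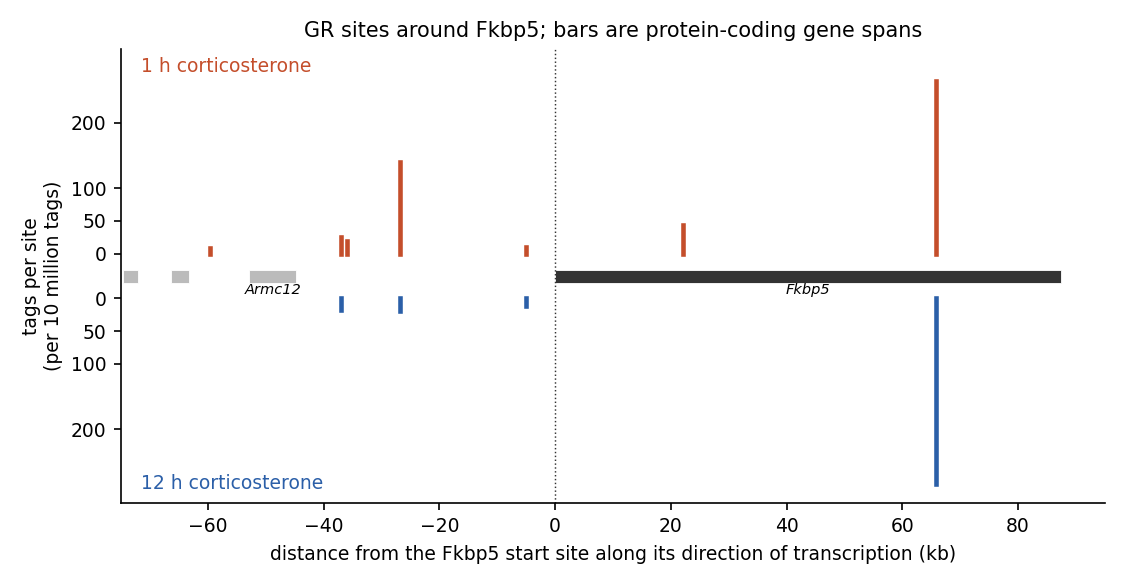
Tags per site (scaled to 10000000 tags) against distance from the Fkbp5 start in kb, with 1 h upward and 12 h downward, 1 vertical line per listed site and bars for protein-coding gene spans. The line inside the gene 65.8 kb from the start is of nearly equal height in both directions (263.6 and 283.7), whereas the line 26.8 kb upstream reads 139.7 at 1 h and 18.9 at 12 h.

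The other chaperone genes carried few sites, none of them inside the gene. Fkbp4 had 1 site, 39.3 kb from its span and 5.68 kb from Tex52 (chr6:128390686-128390968), with 1.14 tags untreated, 11.9 at 1 h and no peak at 12 h. Among 1 h sites within 1.5 times of that level, 78.1% were not listed at 12 h. Hsp90ab1, the constitutive HSP90 isoform gene, had 2 sites at 1 h and none at 12 h. The stronger held 0.253 tags untreated and 18.3 at 1 h, a fold of 72.6 from only 2 raw control tags, and lay inside the nucleoside transporter gene Slc29a1, 402 bp from that gene's nearest annotated start (chr17:45596608-45596890). The weaker held 10.9 tags, 37.2 kb from Hsp90ab1. Among 1 h sites within 1.5 times of these levels, 65.3% and 80.0% were not listed at 12 h. The stress-inducible isoform gene Hsp90aa1 had its nearest 1 h site 171 kb away, with 8.72 tags, and Ptges3 had its nearest 443 kb away, with 40.4 tags.

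Nr3c1, the gene of the receptor itself (chromosome 18, 39410545 to 39519421), had no listed site within 100 kb. The nearest lay 359 kb from the gene at 1 h, with 8.50 tags, and 1001 kb from it at 12 h, with 34.4 tags. A site below the caller's minimums would not be seen, so absence from the lists does not show that GR was not bound there. Ncoa2, which encodes a coactivator of the p160 family that binds hormone-loaded GR, held 1 site inside its span (chr1:13294796-13295078), with 1.64 tags untreated and 18.3 at 1 h, and another 80.5 kb outside with 10.9 tags at 1 h. Neither was listed at 12 h, when the nearest site to Ncoa2 lay 4284 kb away. Among 1 h sites within 1.5 times of these levels, 65.3% and 80.0% were not listed at 12 h either.

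H6pd, the source of NADPH for Hsd11b1 (chromosome 4, 149979474 to 150009023, minus strand), was the metabolism gene with most sites, 5 at 1 h and 4 at 12 h. Its strongest 1 h site lay 131 bp past the end of the gene, 23.9 kb downstream of the annotated start, which itself lies 5.79 kb inside the span (chr4:149979202-149979484). It held 0.631 tags untreated and 111.6 at 1 h, a fold of 177 over the untreated library, and the overlapping 12 h site held 23.9. The log2 ratio of -2.22 (-2.43 to -2.01) was the 30th lowest of the 2436 shared sites. Sites with 1 h tags within 1.5 times of its own numbered 335, of which 96.1% were listed at 12 h with a median log2 ratio of -0.87. Of those 322 pairs, 16, this one included, were as low. At 12 h, however, another site was listed 717 bp away, inside the gene end (chr4:149979734-149980036), with 36.4 tags. No other pair of 12 h peaks was listed as close together.

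The caller's spacing bears on how the pair of 12 h sites at the H6pd end is read. The second 12 h centre lay 542 bp from the 1 h centre, while the caller kept 1 h peaks at least 564 bp apart, per the file headers, and no listed pair was closer than 623 bp, so the 1 h list could not hold a peak there beside the stronger one. The 12 h overlap was 117 bp, with centres 175 bp apart, and the focus ratio of the 1 h site was 0.720 where the median 1 h peak had 0.841. Both 12 h sites together held 60.3 tags over 604 bp, a mean of 30.1 per site, against 111.6 over 282 bp at 1 h. The 1 h tags in the second window are not given, so no ratio is drawn over the whole gene end.

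Inside H6pd, 13.8 kb downstream of the start, a weaker site (chr4:149989250-149989532) held 1.77 tags untreated, 20.8 at 1 h and 23.8 at 12 h, a log2 ratio of 0.20 whose interval covers 0 (-0.08 to 0.48). The other H6pd sites were distant and nearer to other genes. Near Spsb1, 92.4 kb from H6pd, 1 site held 0.126 tags untreated, 17.4 at 1 h and 9.31 at 12 h, for a log2 ratio of -0.91 (-1.29 to -0.53), and another held 41.7 tags at 1 h and was not listed at 12 h. The latter (chr4:149889845-149890127) would have needed 7.67 tags to reach the caller's tag threshold at 12 h, and 29.0% of 1 h sites within 1.5 times of its level were not listed then. The site 450 bp from Gpr157, a G protein-coupled receptor gene, held 18.7 tags at 1 h alone. Among 1 h sites within 1.5 times of that level, 64.6% were not listed at 12 h.

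**Figure D3:**
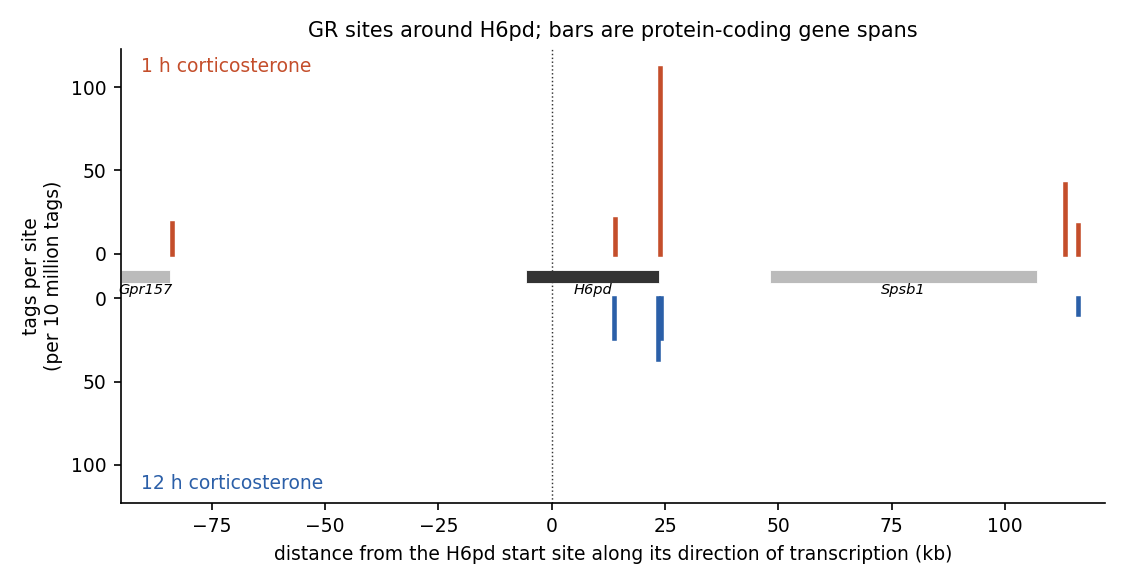
Tags per site (scaled to 10000000 tags) against distance from the annotated H6pd start in kb, with 1 h upward and 12 h downward and bars for protein-coding gene spans. At the gene end the 1 h line of 111.6 faces a pair of 12 h lines of 36.4 and 23.9, while the site 13.8 kb from the start is similar at both times (20.8 and 23.8).

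Hsd11b1 had 3 sites at 1 h and none at 12 h, all weak. The one inside its span, 9.75 kb downstream of the annotated start (chr1:193232467-193232749), held 1.14 tags untreated and 13.0 at 1 h. The others, with 15.5 and 12.5 tags, lay inside Lamb3, a laminin chain gene, 46.9 and 34.3 kb away. Among 1 h sites within 1.5 times of 13.0, 15.5 and 12.5 tags, 76.4%, 71.8% and 77.2% were not listed at 12 h. Hsd11b2 had the opposite listing, with no 1 h site and 1 site at 12 h, which 1.27% of protein-coding genes shared. That site held 2.15 tags untreated and 16.5 at 12 h and lay inside Atp6v0d1, a proton pump subunit gene, 22.8 kb from Hsd11b2 (chr8:105546654-105546956). In the 1 h library more than 12.9 tags were needed there to reach the fold over control.

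At the 7 positions listed at both times, 4 at Fkbp5 and 3 at H6pd, the 12 h library was lower beyond counting error at 4 and higher at 1, with 2 intervals that cover 0. Of all shared sites 61.8% were lower and 11.5% higher by the same measure. The position called higher was the main Fkbp5 site, and per base of the window that call was gone, with 4 of the 7 lower and 0 higher, against 67.2% and 8.74% of all shared sites. At least 2-fold lower were 2 of the 7, the upstream Fkbp5 site and the H6pd gene-end site, against 24.5% of all shared sites. The H6pd position counts here by its overlapping 12 h peak alone, and it is no longer paired when centres must lie within 100 bp. None of the 7 was at least 2-fold higher, against 1.44% of all shared sites. Of the 9 sites at 12 h, 7 were listed at 1 h, against 84.5% of all 12 h peaks. Of the 20 sites at 1 h, 7 were listed at 12 h (35%), against 43.2% of all 1 h peaks. No interval is given for this share, since 12 of the 20 sites lay at Fkbp5 and H6pd and sites are not replicates. 

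**Figure D4:**
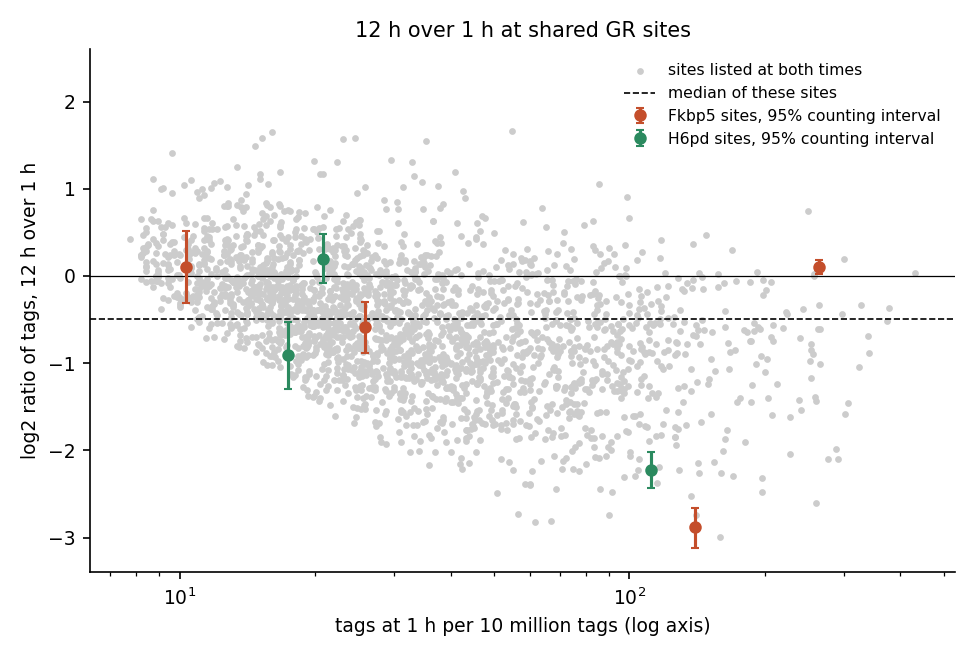
Log2 ratio of tags at 12 h over 1 h against tags at 1 h (log axis, per 10000000 tags) for the 2436 sites listed at both times (grey), with the 4 Fkbp5 and 3 H6pd sites in colour and their 95% counting intervals; the dashed line is the median, -0.49. For their 1 h strength, the upstream Fkbp5 site at -2.88 lies at the lower edge and the H6pd gene-end site at -2.22 near it. The main Fkbp5 site at 0.11 lies near the upper edge for its strength. Weak 1 h sites with a low ratio would have dropped out of the 12 h list.

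The untreated library gave between 1 and 20 raw tags at the 1 h sites of these genes, with a median of 9, where the caller's average per base predicts 10.8. At the 12 h sites it gave between 2 and 23, with a median of 13 against 11.6. The upstream Fkbp5 site was the highest at both times, with 20 and 23 raw tags. No gene of the set had a peak in the untreated list, which holds 1 peak, on chromosome X.

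The distance limit kept out some strong sites. Just inside it lay the H6pd sites at 89.5 and 92.4 kb, with 41.7 and 17.4 tags at 1 h. Just outside were a site 119.9 kb from Hsd11b2 with 8.94 tags at 1 h, sites 131 and 144 kb from H6pd with 22.3 and 16.1 tags at 1 h and 12.6 and 11.9 at 12 h, and sites 135 and 149.5 kb from Hsd11b1 with 45.2 and 59.3 tags at 1 h alone. Inside Tead4, 148 kb from Fkbp4, a site held 96.8 tags at 1 h and 68.6 at 12 h.

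Around the core set, 39 further genes of the pathway were looked up in 3 lists, and 26 had a 1 h and 16 a 12 h site within 100 kb, where 37.9% and 22.6% of all protein-coding genes did. The lists were chosen with earlier results of these data known, so these counts are no test of the pathway. The median number of 1 h sites per gene was 1 for co-chaperones and coregulators and 1.5 for ligand metabolism and for the core set, against 0 over all protein-coding genes. Of 16 co-chaperone genes, 11 had a site at 1 h and 6 at 12 h. Ppid, the cyclophilin that competes with FKBP51 and FKBP52 for HSP90, had a site nearer to Fnip2 that held 74.8 tags at 1 h and 16.1 at 12 h, a log2 ratio of -2.22 (-2.48 to -1.97). Bag1, an HSP70 co-chaperone gene, held 53.6 and 20.4 tags 89.6 kb away, with B4galt1 nearer. Sgta, a co-chaperone gene of the TPR family, held 56.2 tags 52.4 kb away at 1 h alone, with Gng7 nearer. The untreated library had 31 raw tags there. Of 13 coregulator genes, 8 had a site at 1 h and 5 at 12 h. Ordered by their strongest 1 h site, the leading genes there were Ncoa6, the acetyltransferase gene Ep300 and Ncoa3, a p160 relative of Ncoa2. Their sites held 51.7 and 12.1, 49.8 and 28.1, and 45.6 and 17.0 tags at 1 h and 12 h. These sites lay from 62.7 to 97.0 kb from the gene, and Pigu, Rbx1 and Sulf2, in that order, were nearer.

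Of 10 genes of ligand metabolism, transport and the second corticosteroid receptor, 7 had a site at 1 h and 5 at 12 h. The neighbouring genes Abcb1a and Abcb1b share their strongest site at each time and are counted separately, here and in the totals over all lists. Por, which passes electrons to steroid-metabolising cytochromes P450, held 72.7 and 67.1 tags 13.8 kb away, with Rhbdd2 nearer, and had a log2 ratio of -0.11 whose interval covers 0 (-0.27 to 0.04). Akr1d1, a steroid reductase gene, had a site 42.8 kb away with 65.2 and 21.6 tags. Srd5a2, another steroid reductase gene, had one 52.2 kb away, nearer to Xdh, with 23.0 and 15.0 tags. The mineralocorticoid receptor gene Nr3c2 had no site at either time, like Nr3c1. No gene of the 3 lists had a site at 12 h alone. Within 25 kb the counts were 3 and 1 for co-chaperones, 2 and 1 for coregulators and 3 and 2 for ligand metabolism at 1 h and 12 h, where 17.1% and 9.33% of all protein-coding genes had a site, so that the co-chaperone and coregulator counts lay near the share over all genes.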

How the data were processed

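GR ChIP-seq peak lists of 3 libraries were used. The submitters' processing notes name bcl2fastq 2.17, Bowtie2 2.2.6, HOMER (no version) and mm10. Peaks were called per library, per the file headers, with a false discovery rate of 0.001, a tag threshold of 75, a minimum fold of 6 over both the control and the 10 kb around, and a Poisson p of 0.0001.

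The signal is the authors' normalised tag count per 10000000 tags. Fold ratios, the focus ratio (a fraction) and the score are the authors' values from the caller. The focus ratio and the score were used within a list, whereas folds at 1 h and 12 h also stand side by side. For the untreated peak the authors deposited a whole tag count. Scaled tag totals were turned back into whole tags (within 0.1 of a tag) for exact binomial (Clopper-Pearson) 95% intervals of the ratio; since reads carry no molecular identifiers, these cover counting error only. In the untreated column the caller wrote 0.5 where it found no tag.

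Lists were paired by overlap of 1 bp or more. Gene spans and promoters came from RefSeq, GRCm38.p6, the assembly of mm10, which matched all 49 genes; chromosome Y was left out. The 10 genes and the 3 lists were chosen with earlier results of these data known. Named are all 10 genes with each site, the 3 strongest genes per list at 1 h, and the 3 shared sites nearest in level to the main Fkbp5 site. Planned motif counts under peaks were not run, since no genome was used; they were made in promoters. Scripts were tested on simulated data and ran in Python 3.11.15 with scipy 1.17.1.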

Additional observations from a re-analysis of the deposited data

How the results depend on the processing

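No test across conditions was possible with 1 library per condition, and no library could be left out. No paired analysis was possible because the conditions share only replicate number 1. At peaks with 2 or more times each minimum of the caller, 3 genes of the set had a site at 1 h in place of 6, against 19.4% of all protein-coding genes. Windows of 25 and 10 kb gave 5 and 4 genes at 1 h, against 17.1% and 11.8% of all protein-coding genes, and 3 and 2 at 12 h, against 9.33% and 6.24%. With 25 kb, co-chaperones with a site numbered 3 at 1 h and 1 at 12 h, coregulators 2 and 1, and ligand metabolism genes 3 and 2, most of these near the shares of 17.1% and 9.33% over all genes. Counting only sites with the gene as nearest, a choice made after seeing the data, gave 4 genes at 1 h and 2 at 12 h. Pairing by centres within 100 bp, or by a larger overlap, kept 6 of the 7 shared positions, losing the H6pd gene end. The median log2 ratio of the 7 positions, -0.59, was -0.68 per base of the window, -0.63 with untreated tags subtracted and -0.09 relative to the median of all shared sites. Of 14 ratios of positions per base or with untreated tags subtracted, 13 stayed within the counting interval. The exception was the main Fkbp5 site, whose 0.11 became 0.01 per base, which ended its call as higher. Centring on the median of all shared sites adds the same amount to every position and took each of the 7 ratios out of its counting interval. With it, 8 of 21 ratios left their interval. The Fkbp5 site 37.0 kb upstream, called lower, then stood at -0.09. The main Fkbp5 site stood at 0.60, the one 5.01 kb upstream at 0.60 and the H6pd site 13.8 kb from the start at 0.69. The calls of lower and higher thus refer to tags scaled by library size, not to the other shared sites. Depth limits the weakest positions, as the interval of -0.31 to 0.52 at the Fkbp5 site with 10.3 tags shows.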
